A study of Mus musculus with 8 samples.

Results

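The secreted Wnt antagonist genes Sfrp2, Sfrp4, Dkk3 and Wif1 and the receptor gene Fzd8 were followed in the lungs of Fra-2 transgenic mice. They were chosen by name from earlier results of these same arrays, where they stood out between transgenic and wild-type lung. That contrast therefore selected them, and their ratios are given below as a description, with no test. They are 5 of the 8741 genes named here, and all of their 8 probes, of 20794 on the array, were used: 3 for Dkk3, 2 for Sfrp2 and 1 each for Sfrp4, Wif1 and Fzd8.

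Fra-2, encoded by Fosl2, is a transcription factor of the AP-1 family. The transgenic group was 4 male mice of 14 weeks, on the background C57BL6 x CBA, with the genotype fra-2 (Fosl-2 gene) transgenic. No source used here names the promoter that drives the transgene. The control was a single pool, made from the lungs of 4 wild-type males that matched in age and background. Each transgenic mouse was set against that pool on 2 spotted 2-colour arrays with the dyes exchanged, giving 8 arrays. Mice of 6 and 10 weeks, which the study also covered, are not analysed here.

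Wnt proteins are secreted ligands that bind Frizzled receptors and, in the canonical branch, stabilise beta-catenin, which then activates target genes with TCF/LEF factors. Several secreted proteins hold the ligands or their co-receptors back: the secreted Frizzled-related proteins, among them Sfrp2 and Sfrp4, carry a Frizzled-like cysteine-rich domain that can bind Wnts, and Wif1 binds Wnts through a domain of its own. Dkk3 is a divergent member of the Dickkopf family, whose other members block the LRP co-receptors, and its own effect on Wnt signalling depends on the cell. Fzd8 is a membrane receptor for Wnts. Fibroblasts and other mesenchymal cells are a known source of several of these antagonists, and the pathway takes part in lung development and in repair after injury.

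Upstream sequence was matched for 2 of the 5 genes, Sfrp2 and Wif1. The match gave no stretch for Sfrp4, Dkk3 and Fzd8. The sequence set held none for Sfrp4 and Dkk3, and a chromosome was left out of the match by a fixed setting. The lack of a stretch for these genes is therefore no result. The stretches are shown because the ratios of the 2 genes lay on opposite sides of 0 and because the transgene encodes a DNA-binding factor. Both stretches are the 250 bases before the annotated start, from RefSeq on build GRCm38.p6, plus strand, at chr3:83766071-83766320 for Sfrp2 and chr10:121033754-121034003 for Wif1. Capitals mark every 7-base stretch that differs from the AP-1 motif TGANTCA in at most 1 of its 6 fixed letters.
Sfrp2: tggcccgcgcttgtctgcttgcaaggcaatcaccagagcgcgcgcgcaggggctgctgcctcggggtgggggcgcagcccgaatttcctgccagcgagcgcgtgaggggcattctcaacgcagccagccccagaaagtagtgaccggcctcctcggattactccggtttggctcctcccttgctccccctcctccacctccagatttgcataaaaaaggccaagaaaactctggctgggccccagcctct
Wif1: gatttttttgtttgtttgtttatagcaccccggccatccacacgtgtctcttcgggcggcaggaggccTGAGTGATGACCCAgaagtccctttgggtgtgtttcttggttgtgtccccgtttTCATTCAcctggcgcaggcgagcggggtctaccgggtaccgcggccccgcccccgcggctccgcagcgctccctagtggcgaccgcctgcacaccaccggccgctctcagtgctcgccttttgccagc
The Sfrp2 stretch held 0 such near matches. The Wif1 stretch held 3, whose first bases lie 182, 175 and 128 bases before the start; the first and the second abut. At least 1 near match was present in 63.2% of the 32851 upstream windows of the same length in the RefSeq table, so its presence is common. The motif TGANTCA reads the same on both strands, and its exact form was in neither stretch and in 6.75% of all windows.

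Other motifs were searched on both strands. The 8-base element TGACGTCA (1.55% of windows) and the TCF/LEF motifs CTTTGAA (4.46%) and CTTTGAT (3.21%) were in neither stretch. Wif1 held CANNTG, the E-box, at 2 places (66.2% of windows hold it), GGGCGG, the GC box, at 2 (32.7%) and TATAAA at 1 (12.4%), and 1 of the E-boxes overlaps the last near match to the AP-1 motif. Sfrp2 held none of these 3. Both stretches were rich in G and C, at 63.6% for Sfrp2 and 62.8% for Wif1 against a median of 52.4%, with 16 and 21 CpG pairs against a median of 6. A match is a string of letters and not a bound site, and these arrays measured no binding.

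The values are log2 ratios, in which 1 unit is a doubling and 0 means the level of the pool. Each array gave 20585 to 20729 of them, with array medians between -0.093 and 0.008 and interquartile ranges of 0.45 to 0.52, except that the Cy3 array of mouse 4, the one with transgenic RNA in Cy3, had an interquartile range of 0.91. Dye-swapped arrays of a mouse correlated at 0.389 (mouse 4) to 0.685 (mouse 1) over all probes. Reading the ratios as transgenic over pool is likely but not certain: it follows the order of the channels in the labels, which is the same on every array, and how the ratios were formed is not given in the sources. With the opposite sign, higher and lower would exchange in everything that follows. The transgene could not be checked, as the annotation lists 0 probes of Fosl2. Ratios give no levels, so the lung label could not be checked against levels of marker genes, and less RNA per cell cannot be told apart from fewer cells that make it.

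Sfrp2 was higher in transgenic lung on 1 of its 2 probes. On Sfrp2 probe 1 the arrays with transgenic RNA in Cy5 read 0.56, 0.46, 1.22 and 0.72 in mice 1 to 4, and the arrays with it in Cy3 read 0.44, 0.54, 1.18 and 0.73. All 8 arrays lay above 0, and both arrays of mouse 3 lay above every array of the other mice. The mean was 0.73 ± 0.33 (SD, n = 4 mice), or 1.66-fold the pool, and 98.1% of the probes tested had a lower mean. The array pairs of this probe differed by at most 0.12, while the mouse means ran from 0.50 in mice 1 and 2 through 0.73 in mouse 4 to 1.20 in mouse 3.

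The second Sfrp2 probe read differently. Sfrp2 probe 2 gave -0.66, -0.052, -0.02 and 0.28 on the Cy5 arrays and 0.55, 0.18, 0.25 and 1.73 on the Cy3 arrays of mice 1 to 4. Every Cy3 array exceeded its dye-swapped partner, by 0.23 to 1.45, and the Cy5 arrays of 3 mice were below 0. The mean was 0.28 ± 0.49 (SD, n = 4 mice), and mouse 4, at 1.01, stood apart from the others at -0.058 to 0.11; without mouse 4 the mean was 0.04. Across the 8 arrays the 2 probes differed by a root mean square of 0.83. The rise of Sfrp2 thus rests on probe 1, and the mean of both probes, 0.51 ± 0.31, joins readings that do not match.

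Sfrp4, a second secreted Frizzled-related protein, was lower. Its probe read -0.28, -0.68, -0.17 and -0.30 on the Cy5 arrays of mice 1 to 4 and -0.50, -0.63, -0.37 and -0.59 on the Cy3 arrays. All 8 arrays lay below 0, with mouse 2 lowest and mouse 3 closest to the pool. The mean was -0.44 ± 0.16 (SD, n = 4 mice), which is 73.7% of the pool. The lowest array of Sfrp2 probe 1 was 0.44 and the highest of Sfrp4 -0.17. Both genes were chosen on this ratio, so the gap between them is no result.

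Dkk3 was lower on each of its 3 probes. Dkk3 probe 1 read -0.33, -0.48, -0.31 and -0.85 on the Cy5 arrays of mice 1 to 4 and -0.60, -0.87, -0.28 and -1.19 on the Cy3 arrays. Dkk3 probe 2 read -0.27, -0.72, -0.25 and -0.87 on Cy5 and -0.60, -0.71, -0.40 and -0.68 on Cy3. Dkk3 probe 3 read -0.40, -0.48, -0.026 and -0.49 on Cy5 and -0.50, -0.96, -0.50 and -1.30 on Cy3. Mice 2 and 4 were low and mouse 3 was nearest the pool on all 3 probes, and only the Cy5 array of mouse 3 on probe 3 came close to the pool's level. The means were -0.61 ± 0.31, -0.56 ± 0.22 and -0.58 ± 0.28 (SD, n = 4 mice), or 65.4%, 67.7% and 66.8% of the pool.

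The mouse means of the Dkk3 probes were close to one another. They lay within 0.03 of each other in mouse 1, within 0.045 in mouse 2, within 0.064 in mouse 3 and within 0.24 in mouse 4. Single arrays differed more, as on the Cy3 array of mouse 4, where probes 1 to 3 read -1.19, -0.68 and -1.30. Averaged over the probes, Dkk3 stood at -0.45 in mouse 1, -0.70 in mouse 2, -0.29 in mouse 3 and -0.90 in mouse 4. Probes of a gene share the RNA and the arrays, so they are repeat readings and not added animals.

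Wif1, the Wnt inhibitory factor, was lower in every animal, by a like amount in the mouse means. Its probe read -0.82, -0.36, -0.38 and -0.40 on the Cy5 arrays of mice 1 to 4 and -0.51, -0.40, -0.80 and -0.56 on the Cy3 arrays. The array nearest to the pool was thus at -0.36. The mean was -0.53 ± 0.12 (SD, n = 4 mice), or 69.3% of the pool, and this was the smallest SD among the 8 probes. The 2 arrays of a mouse differed by up to 0.42, more than the range of 0.28 among the mouse means.

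Fzd8, the receptor, had the mean nearest to 0 among the lower genes. Its probe read -0.57, -0.39, -0.23 and -0.23 on the Cy5 arrays of mice 1 to 4 and -0.45, 0.055, -0.55 and -0.44 on the Cy3 arrays. Of the 8 arrays, 7 lay below 0, the exception being the Cy3 array of mouse 2. The mean was -0.35 ± 0.14 (SD, n = 4 mice), or 78.4% of the pool.

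**Figure D1:**
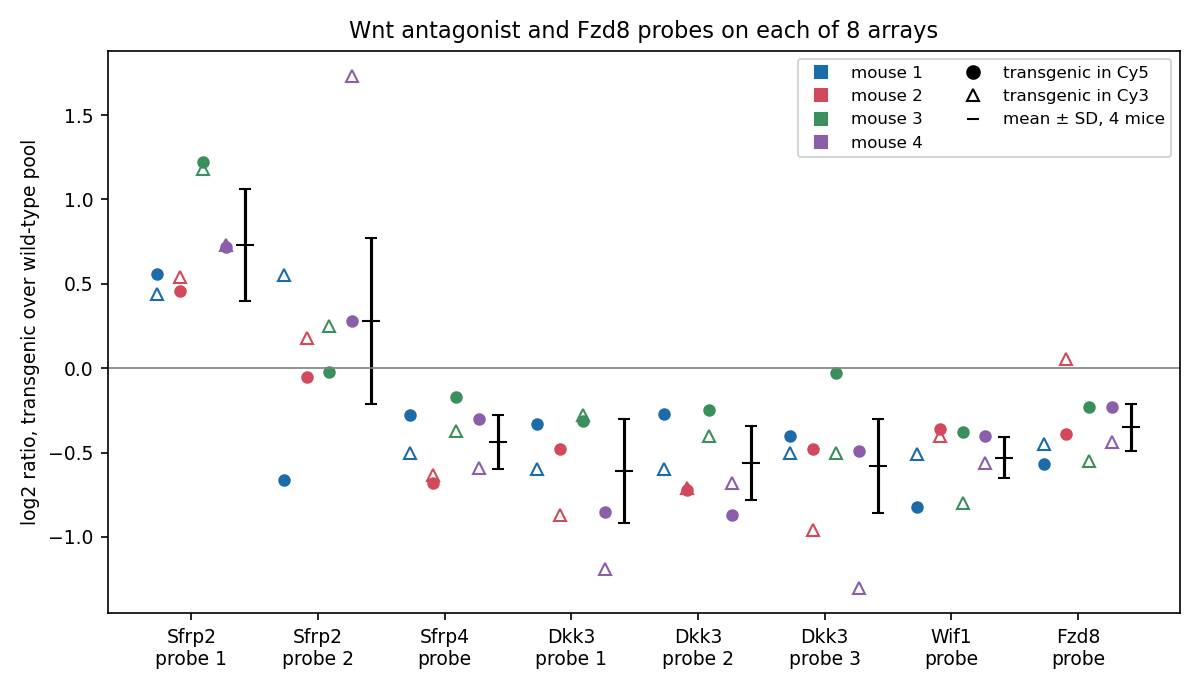
Log2 ratio of transgenic over pool (vertical axis) for each of the 8 probes, with mice 1 to 4 by colour, filled circles for transgenic RNA in Cy5, open triangles for Cy3, and the mean ± SD over 4 mice in black. Sfrp2 probe 1 lies above 0 on all 8 arrays, while the probes of Sfrp4, Dkk3 and Wif1 lie below 0 on all 8 and Fzd8 on 7.

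In order of the gene means, Dkk3 at -0.59 ± 0.27, Wif1 at -0.53 ± 0.12, Sfrp4 at -0.44 ± 0.16 and Fzd8 at -0.35 ± 0.14 were neighbours whose values over mice overlapped, and Sfrp2 stood apart from them at the other end. Of all probes tested, 13.2% had a lower mean than Fzd8, 9.01% than Sfrp4, 6.13% than Wif1 and 4.19% to 5.34% than the Dkk3 probes. For Sfrp2 probe 2 the share was 83.6%. For scale, a limma fit over 20621 probes called 14.6% of all probes lower and 11.1% higher at an adjusted p under 0.05. The place of the 5 genes in that fit follows from their selection, so no calls are counted for them. With each mouse left out in turn and in the other settings, Sfrp2 probe 1 lay between 0.58 and 0.81 and the probes of Sfrp4, Dkk3, Wif1 and Fzd8 all stayed below 0. That too is description and no support, since the genes were chosen on this ratio and nearly all of their arrays shared its sign.

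The 4 mice were then compared with each other, a contrast in which the pool cancels and which did not select the genes. By a limma F test with the dye as covariate, 0 of the 8 probes differed between mice after Benjamini-Hochberg adjustment, against 0.986% of all 20392 probes with a value on every array (201 probes). Sfrp2 probe 1 (adjusted p = 0.159 by limma) and Dkk3 probe 1 (adjusted p = 0.23) passed at an unadjusted p under 0.05, as did 3263 of all probes. With mouse 4 left out, Sfrp2 probe 1 reached an adjusted p of 0.0723, and with mouse 3 left out 0.661. For Sfrp4 the adjusted p was 0.478, for Wif1 0.724 and for Fzd8 0.695 by the same test. The test had little power here: in simulated arrays it recovered 1% of probes in which mouse 2 alone was shifted by 1 log2 unit and 61% at 2 units. Other patterns among the mice were not simulated.

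The order of the mice differed among the genes. All 3 Dkk3 probes ranked the animals, lowest first, as mouse 4, 2, 1 and 3, and the Cy5 arrays alone gave that order on each of the 3. The Cy3 arrays alone gave it on probe 1, with mice 2 and 4 exchanged on probe 2 and mice 1 and 3 on probe 3. It was also the most frequent of the 24 possible orders, held by 9.52% of all probes, so that sharing it is not particular to Dkk3. Sfrp4 ranked them 2, 4, 1 and 3 on either dye (4.35% of probes). Mouse 3 thus combined the highest Sfrp2 probe 1 with the smallest reductions of Dkk3 and Sfrp4.

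Some fibroblast markers had the mouse order of Dkk3. Of 17 fibroblast marker genes listed, 15 were measured, and 6 of them (Col1a1, Col1a2, Npnt, Fbln1, Dpt and Mfap4) had it, while Dcn and others did not. The list's median was -0.091, -0.39, 0.17 and -0.58 in mice 1 to 4, and over the mice 3 of the 15 were called lower (Inmt, Npnt and decorin, Dcn) and 0 higher, against 18.4% and 13.5% of all named genes. The endothelial list had the same order of medians, 0.033, -0.55, 0.049 and -0.81, though 1 of its 6 measured genes, Plvap, had that order itself. Dkk3 lay below the fibroblast median in each mouse, but it was selected on this ratio, so that gap is no result. The part of fibroblast content in the Dkk3 and Sfrp4 values was not tested.

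Wif1 and Fzd8 shared another order, mouse 1, 3, 4 and 2 from the lowest (4.46% of probes). Wif1 stood at -0.66, -0.38, -0.59 and -0.48 in mice 1 to 4, and Fzd8 at -0.51, -0.17, -0.39 and -0.33. Neither probe kept that order on the arrays of 1 dye, and the range of mouse means was smaller than the largest gap between the arrays of a mouse. The median of the club cell markers, genes of the secretory cells of the airway, had this order over a far wider range, -1.66, -0.30, -1.52 and -0.59. Of 6 measured club cell markers, 4 had it themselves (Scgb3a1, Cyp4b1, Gsta3 and Aldh1a1). Over the mice 4 of the 6 were called lower and 0 higher, against 18.4% and 13.5% of all named genes. The part of club cell content in Wif1 and Fzd8 was not tested.

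**Figure D2:**
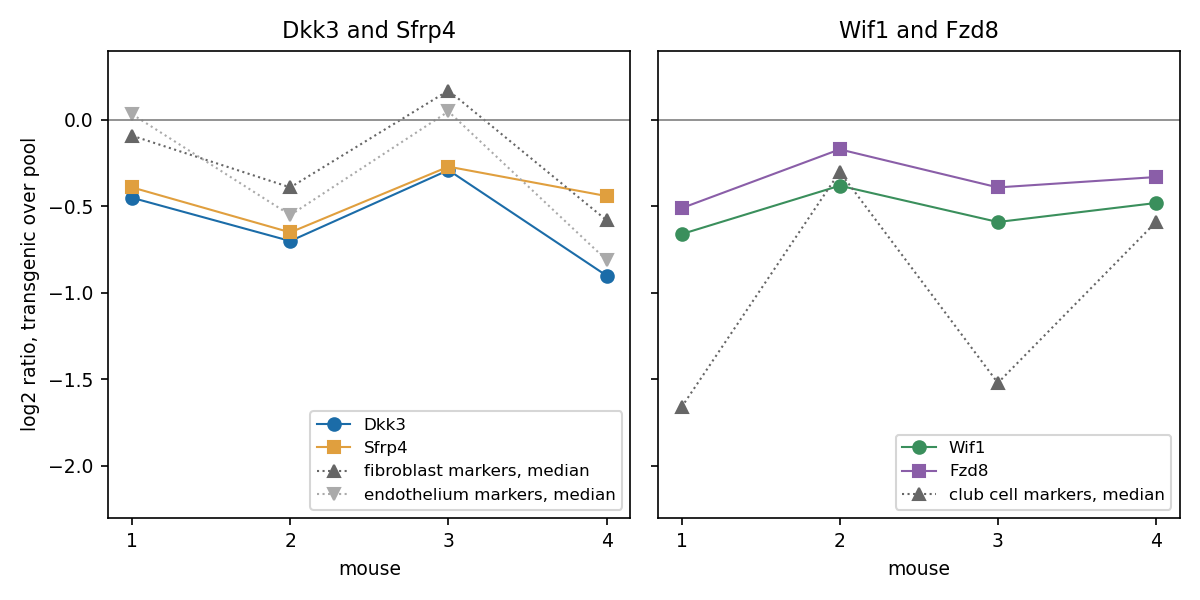
Log2 ratio of transgenic over pool (vertical axis) in mice 1 to 4 (horizontal axis); solid lines are gene means over probes, dotted lines the median of a marker list. Dkk3 is lowest in mouse 4 at -0.90 and highest in mouse 3 at -0.29, as are the fibroblast and endothelial medians, while Wif1, Fzd8 and the club cell median are all lowest in mouse 1 and highest in mouse 2.

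The dyes were compared next, again without use of the selecting contrast. Of the 8 probes, 0 differed between the Cy5 and the Cy3 arrays after adjustment by limma, against 0.0049% of all probes (1 of 20392). At an unadjusted p under 0.05, 4912 of all 20392 probes and 2 of the 8 passed. In simulated data the dye test recovered 50% of probes changed by 1 log2 unit. The 0 therefore does not show that the 8 probes are free of a dye effect. Sfrp2 probe 2 averaged -0.11 on Cy5 and 0.68 on Cy3 arrays, a difference of -0.79 (95% interval -1.36 to -0.22, unadjusted p = 0.0138, adjusted p = 0.17 by limma), and its direction changes on the Cy5 arrays alone. Dkk3 probe 3 was lower on the Cy3 arrays of all 4 mice, by 0.46 on average (95% interval 0.12 to 0.80, unadjusted p = 0.0151, adjusted p = 0.17 by limma), and both dyes put it below the pool. Sfrp2 probe 1 averaged 0.74 on Cy5 against 0.73 on Cy3, and Fzd8 -0.36 against -0.35.

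**Figure D3:**
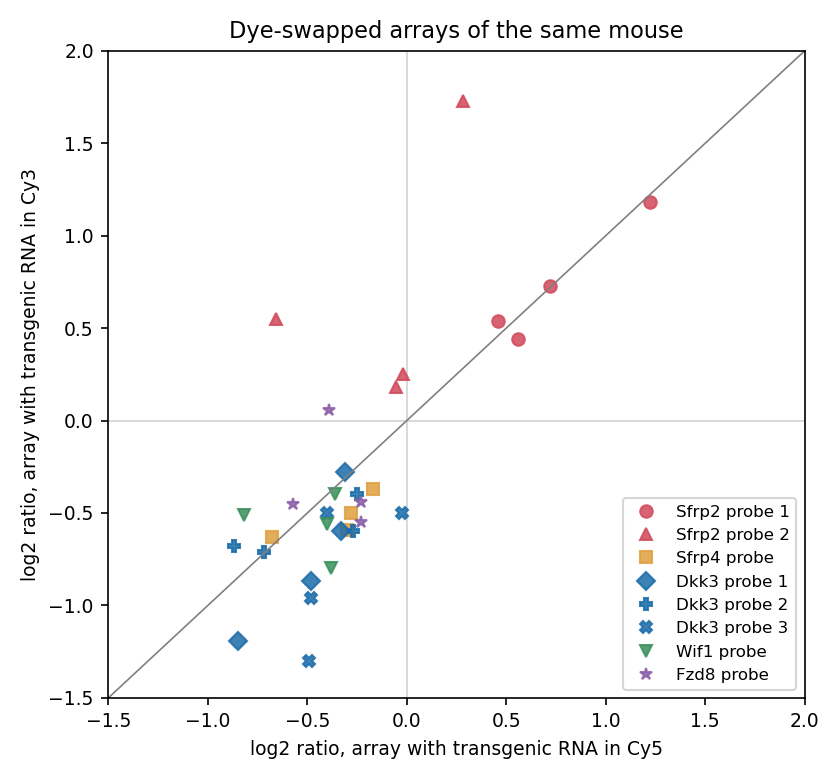
Each point is a probe in 1 mouse, with the log2 ratio of its Cy5 array on the horizontal axis and of its Cy3 array on the vertical axis; the grey diagonal marks equal readings. Sfrp2 probe 1 lies on the diagonal, Sfrp2 probe 2 lies above it in all 4 mice, with mouse 4 at 0.28 and 1.73, and Dkk3 probe 3 lies below it.

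Among the other named probes, those closest to each gene over all 8 arrays were found by the root mean square difference of the log2 ratios, over about 12095 probes and separately for the probe of each gene with the largest mean in size. Closest to Sfrp2 probe 1 were Mcm5, a subunit of the replicative helicase, at 0.216, then Rnf144a at 0.232 and the transcription factor gene Stat3 at 0.233; the second probes of the latter pair each averaged 0.10, far from Sfrp2. Closest to Sfrp4 were Rer1 (0.0934), Pdhb, a subunit of pyruvate dehydrogenase (0.101), and 1 probe of Nr5a1 (0.102). Closest to Dkk3 probe 1 were Galnt18 (0.0964), Srr (0.0988) and 1 of the 6 probes of Itgb1, the integrin beta 1 chain (0.109).

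Closest to Wif1 were another probe of Nr5a1 (0.142), the small heat shock protein gene Hspb1 (0.15) and Idh3a (0.154), and closest to Fzd8 were Csgalnact1 (0.0984), Mtx2 (0.0987) and Asf1a (0.109). Sfrp2 had the loosest neighbours of the 5. Within the set itself, the Dkk3 probes lay 0.191 to 0.301 from each other, Wif1 and Fzd8 lay 0.224 apart, and Sfrp4 lay 0.211 from Dkk3 probe 2. With mean values this small, much of the likeness is a shared level.

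The rest of the pathway was read from lists of 209 Wnt pathway genes that leave the 5 out, of which 116 were measured; values here are averaged over the probes of a gene and tested by limma over all 8692 named genes. Of the 116, 24 were lower (20.7%) and 11 higher (9.48%), against 18.4% and 13.5% of all named genes. Their median was -0.062, against -0.011. These counts lie near the background, and no shift of the pathway is read from them. No shift of a single role is read from the counts by role below. At least 1.5-fold, 8 were lower and 2 higher. Several genes not called held a probe that passed by itself in the fit over probes, which the average hides.

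Among ligands and the genes of their secretion, 0 of 11 measured passed the threshold in either direction by limma, 3 doing so at an unadjusted p under 0.05. Of all named genes, 18.4% were called lower and 13.5% higher. Averaging hides Wnt7a, whose 2 probes passed in opposite directions in the fit over probes, at 0.56 (adjusted p = 0.00735 by limma) and -0.59 (0.00902). The largest mean was Wnt7b at 0.60 ± 0.70 (SD, n = 4 mice), which was 1.62 in mouse 2 and 0.042 to 0.46 in the others.

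Among the 9 other secreted antagonists and extracellular modulators, 2 fell (22.2%) and 0 rose, against 18.4% and 13.5% of all named genes. Igfbp4, an IGF-binding protein that can also block Wnt receptors, fell to 54.3% of the pool, with -0.88, -0.84, -0.71 and -1.10 in mice 1 to 4 (mean -0.88 ± 0.17, adjusted p = 0.0012 by limma), a lower mean than that of any chosen antagonist. The glypican gene Gpc4 was lower on both of its probes, at -0.45 and -0.36. Their average was 75.5% of the pool (-0.41 ± 0.16, adjusted p = 0.0125 by limma, 0.0541 without mouse 1 and 0.0747 on the Cy3 arrays alone). The measured relatives of the chosen antagonists did not pass. Sfrp1 was 0.012, -0.26, 0.71 and -0.19 in mice 1 to 4 (0.066 ± 0.45, adjusted p = 0.776), so it was highest in mouse 3, as Sfrp2 probe 1 was. Frzb, also called Sfrp3, was -0.13 ± 0.16, and Dkkl1, a Dickkopf-like gene, was 0.12 ± 0.26.

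Of 8 other receptors and co-receptors, 1 fell (12.5%) and 0 rose, against 18.4% and 13.5% of all named genes. Fzd5 read -0.48, -0.11, -0.21 and -0.38 in mice 1 to 4, a mean of -0.30 ± 0.17 (adjusted p = 0.037 by limma). That call was lost on leaving out any 1 mouse (adjusted p from 0.0511 to 0.151) and on the Cy3 arrays alone (0.544). The other Frizzled genes measured did not pass and lay closer to the pool: Fzd2 averaged -0.16, Fzd6 -0.078, Fzd3 -0.067 and Fzd4 -0.059. Whether Fzd8 differs from them was not tested, as it was selected for its ratio.

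Cytoplasmic transducers gave 6 lower (20.7%) and 1 higher (3.45%) of 29, against 18.4% and 13.5% of all named genes. Nkd2, a Dishevelled-binding inhibitor of the pathway, read -0.99, -0.89, -0.82 and -0.76 in mice 1 to 4, or 54.9% of the pool (-0.87 ± 0.10, adjusted p = 9.14e-04 by limma). Also lower were the phosphatase subunit Ppp2cb (-0.62 ± 0.18), the F-box protein Fbxw11 (-0.60 ± 0.24), which marks beta-catenin for breakdown, and the scaffold Axin1 (-0.46 ± 0.21). Amer1, a membrane-bound partner of Apc, was higher at 0.66 ± 0.19, or 1.58-fold, though not on the Cy3 arrays alone (adjusted p = 0.0531 by limma). Beta-catenin itself, Ctnnb1, was 0.13 ± 0.26 and did not pass (adjusted p = 0.395 by limma).

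Nuclear factors were called 2 higher and 2 lower of 14, or 14.3% each way, against 13.5% and 18.4% of all named genes. Sox17, a factor that can restrain beta-catenin, rose to 1.49-fold (0.57 ± 0.17), and the corepressor Tle3 rose to 1.20-fold (0.26 ± 0.065), the latter lost without mouse 1, 2 or 3 (adjusted p from 0.0853 to 0.113 by limma) and on the Cy3 arrays alone (0.247). The corepressors Ctbp2 (-0.64 ± 0.19) and Tle1 (-0.50 ± 0.18) fell, although the 2 probes of Ctbp2 averaged -0.97 and -0.30. Lef1, both an effector and a target, was 0.012 ± 0.17 over 5 probes that ranged from -0.33 to 0.24. The probe at -0.33 passed in the fit over probes (adjusted p = 0.0339 by limma).

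Genes widely used as readouts of Wnt activity went both ways, 4 higher and 4 lower of 20 measured. That is 20.0% each way, against 13.5% and 18.4% of all named genes. Birc5, the survivin gene of dividing cells, rose to 2.18-fold with 1.29, 0.79, 1.36 and 1.05 in mice 1 to 4 (1.12 ± 0.26, adjusted p = 0.00116 by limma). Ppard (0.52 ± 0.26), Sox9 (0.44 ± 0.20) and the hyaluronan receptor Cd44 (0.36 ± 0.25) were higher as well, with Cd44 lost in 6 of the other settings (adjusted p from 0.0551 to 0.145 by limma). Vegfa, the endothelial growth factor, fell to 61.1% (-0.71 ± 0.11). The AP-1 gene Jun was lower on both probes, at -0.68 and -0.65, and averaged 63.1% (-0.66 ± 0.22). Cdx2 (-0.44 ± 0.19, adjusted p 0.0542 without mouse 1) and Tnfrsf19 (-0.29 ± 0.16, lost in 7 settings, adjusted p from 0.05 to 0.153) were lower too. Axin2 and Ccnd1, the usual direct readouts, were not among the genes named here.

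The planar polarity and calcium branches gave 9 lower (32.1%) and 4 higher (14.3%) of 28, against 18.4% and 13.5% of all named genes. Lower were the kinase Camk2b (-0.68 ± 0.30), the GTPase Rac1 (-0.50 ± 0.21), the kinase Rock1 (-0.46 ± 0.14) and the calcineurin subunit Ppp3cb (-0.42 ± 0.13, not on the Cy3 arrays alone, adjusted p 0.0664). The 2 probes of Rac1 differed, at -0.23 and -0.80, and its call was lost when only probes with a value on all 8 arrays were used (adjusted p 0.163 by limma). Higher were the polarity genes Celsr3 (0.53 ± 0.26), Vangl2 (0.48 ± 0.34) and Scrib (0.40 ± 0.13), with the kinase Prkcb (0.35 ± 0.073). None of these 4 kept its call throughout: Celsr3 (adjusted p 0.538 by limma) and Vangl2 (0.0943) did not pass on the Cy5 arrays alone, nor Scrib (0.23) and Prkcb (0.108) on the Cy3 arrays alone. Celsr3 was also lost with mouse as a random block (0.0591) and without the Cy3 array of mouse 4 (0.0981), and Vangl2 without mouse 1 (0.065) or mouse 3 (0.057).

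**Figure D4:**
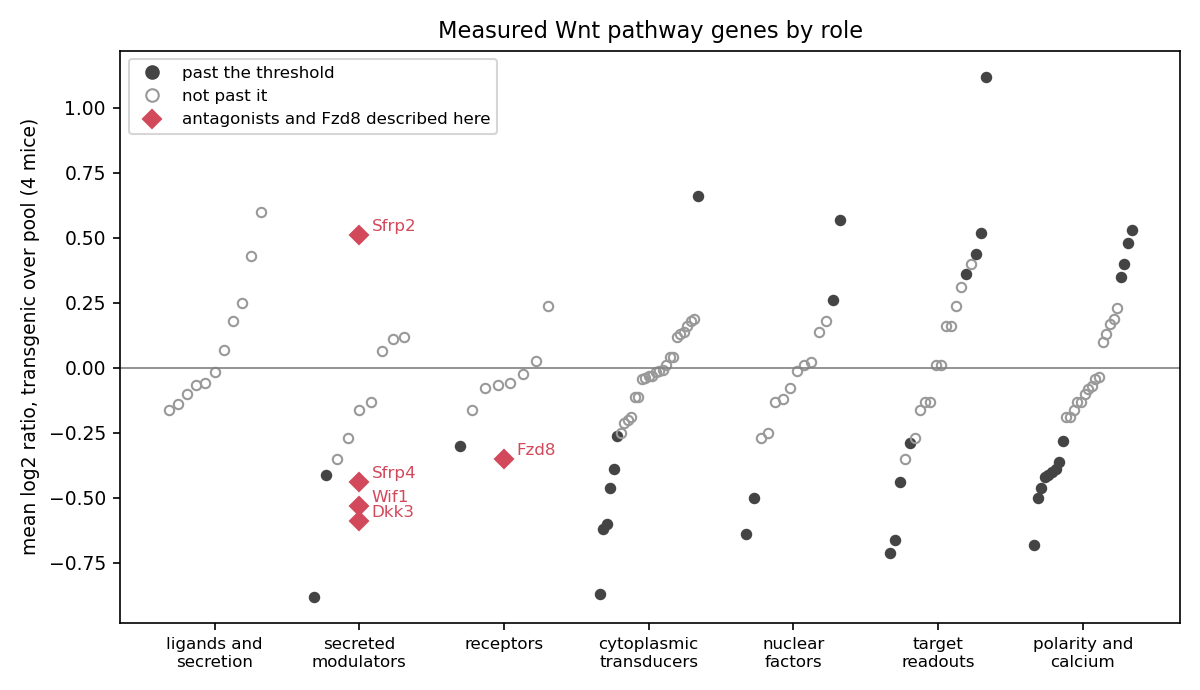
Mean log2 ratio over 4 mice (vertical axis) of each measured Wnt pathway gene, grouped by role and sorted within a role; filled points passed the adjusted p of 0.05, open points did not, and red diamonds are the 5 chosen genes as the mean over their probes. Both directions occur among targets and transducers, no ligand passed, and Igfbp4 at -0.88 lies below all 4 chosen antagonists.

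Marker lists of other cell types are given for comparison, beside the 13.5% of all named genes called higher and 18.4% called lower; their part in the values above was not tested. Macrophage markers were 5 higher and 1 lower of 7 measured (median 1.15), mesothelial markers 3 higher and 1 lower of 6 (0.36), smooth muscle markers 0 higher and 5 lower of 6 (-0.37), and type 1 alveolar markers 0 higher and 3 lower of 4 (-0.66). Fat markers were 0 higher and 6 lower of 8 (-1.36), and heart muscle markers 0 higher and 10 lower of 11 (-0.95). The cartilage and bone list, which shares Sox9 with the Wnt readouts, was 3 higher and 1 lower of 8 (0.074). Type 2 alveolar markers were 1 higher and 0 lower of 4 (0.13), ciliated cell markers 0 and 0 of 5 (-0.068), and endothelial markers 1 higher and 2 lower of 6 (-0.32). Over the mice the median of the fibroblast list was -0.22 and that of the club cell list -1.08.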

How the data were processed

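Whole-lung RNA was labelled indirectly with Cy3 or Cy5, per the labels' protocols. The authors deposited log2 ratios for each probe and array; how they corrected background and normalized is not given in the sources used here, and no spot intensities were used. Values beyond 10 in size (498, placeholders by their constancy, from which the log2 scale was inferred) were set to missing, and 706 more were missing as deposited, none on the probes of the 5 genes. No array was turned or centred.

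Names came from a platform annotation whose probe number plus 11 gives the row of the value table, for numbers up to 20237. With the 5 genes left out, probes of a gene correlated at 0.229 (Spearman, 4731 pairs) at that offset, against at most 0.055 at the others of 121 offsets. It was best in 19 of 21 blocks of 1000 numbers, including all 6 with a probe of the 5 genes; the exceptions (0.067 from 8000, 0.207 from 20000) hold probes of Celsr2, Csnk1g2, Fzd3, Lef1, Ppp3cc, Tcf7l1, Wnt1 and Wnt3, and of Csnk2a2, Rac1, Tcf7l1 and Wnt5a, whose names are less sure. Near-identical genes can cross-hybridise on such arrays.

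Dye-swapped arrays were averaged per mouse (n = 4), and the means were compared with 0 by limma 3.58.1 (R 4.3.3; lmFit, eBayes, two-sided, Benjamini-Hochberg, adjusted p under 0.05) over 20621 probes with a value in each mouse, or over gene means. The pool is 1 control sample, so the spread among wild-type animals is left out. Mice were compared by an F test on 8 arrays with a dye term, and dyes on within-mouse differences. Arrays of a mouse are technical, so the F test compares these 4 animals only. On simulated data with probes changed by 1 log2 unit, 87% were recovered against the pool and 50% in the dye test. Figures used Python 3.11.15 with matplotlib 3.10.9. The 5 genes and all lists were chosen with earlier results of these data known.

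Named genes were every probe of the 5, their 3 nearest named probes, up to 4 genes per Wnt list and direction by size, measured members of the same families, and Axin2, Lef1, Ccnd1 and Ctnnb1 where measured. Wnt7a, Wnt7b, Dcn, Inmt, Plvap and the markers sharing a mouse order were singled out after their values were seen. Alternatives were other normalizations, dyes, blocks and filters, each mouse left out and, chosen after seeing the data, the widest array left out.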

Additional observations from a re-analysis of the deposited data

Results flagged for a closer look

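Of 45 sets of 4 mouse values examined, 2 had an animal far from the others by Dixon's criterion at the 95% level, where chance gives about 1 in 20. For Sfrp2 probe 2, mouse 4 stood at 1.01, against -0.058 to 0.11 in the other mice. For Dkkl1, mouse 4 stood at 0.50, against -0.043 to 0.039. Both involve the mouse whose Cy3 array had the widest spread of ratios.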

How the results depend on the processing

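The log2 ratios of the 8 chosen probes kept their direction in all 14 alternatives, except that Sfrp2 probe 2 was -0.11 on the Cy5 arrays alone. The cause was not tested. The kept directions are no support, as the genes were chosen on this ratio. For Sfrp2 probe 1, Sfrp4, Dkk3 and Wif1 every array had the same sign, so no subset of arrays could turn the mean. Several settings also leave the mean as it was. Sfrp2 probe 2 ranged from -0.11 to 0.68 and was 0.04 without mouse 4 and 0.10 without that mouse's Cy3 array. Sfrp2 probe 1 ranged from 0.58 to 0.81, Sfrp4 from -0.52 to -0.36, the Dkk3 probes from -0.81 to -0.35, Wif1 from -0.58 to -0.48 and Fzd8 from -0.41 to -0.30. Of all probes, 2283 were called higher and 3019 lower; the Cy3 arrays alone, with a wider array among them, gave 1208 and 1982, and leaving out 1 mouse, with fewer animals, 1011 to 1890 and 1536 to 2193. Wnt pathway genes called higher numbered 11, against 7 on the Cy3 arrays alone and 2 at 1.5-fold, and those called lower 24, against 8 at 1.5-fold. Probes differing between mice numbered 201, against 84 with no dye term, 78 with placeholders kept and 381 without the Cy3 array of mouse 4. Leaving out 1 mouse gave 0 to 495, the 495 without mouse 4; the cause was not tested. Those differing between dyes were 0 to 1 on leaving out a mouse. Of the 37 Wnt genes named, 28 were called, and these gave 392 comparisons, of which 36 lost the call and 0 reversed. Only 15 of the 28 kept their call throughout. No paired analysis was possible because the only control is 1 pool; with mouse as a random block, Celsr3 was the 1 named Wnt gene to lose its call. Signal over background is unknown, so dim probes could not be set aside.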
